A study of Arabidopsis thaliana with 9 samples.

Results

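IQD19 (AT4G14750) is a gene of the IQD family in Arabidopsis thaliana, measured here by 1 transcript cluster, a set of probes that the array reports as a single value. It was chosen by name, because its level had stood apart with compound 6, and it is 1 of 16550 genes with a transcript cluster paired with 1 gene. The other 16 IQD genes measured in the same way, of 32 further IQD genes in the RefSeq gene table, serve as background. Detached leaves of Col-0, a standard laboratory accession, were cut from plants of 21 days and kept for 48 h in the dark in MS medium. They received 10 µM of compound 3, 10 µM of compound 6 or, as control, 0.05% DMSO, with no mutation or transgene named in any group. The labels describe both compounds as cytokinins, hormones that delay leaf senescence, and name them by code alone. Each group held 3 biological replicates of 10 to 15 pooled leaves, and each replicate was hybridised to its own Affymetrix array.

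IQD proteins carry a plant-specific domain of repeated IQ motifs, which bind calmodulin, the calcium sensor of the cell. Several family members of Arabidopsis lie along microtubules and bind kinesin light chain-related proteins, and changes in their level alter microtubule arrays and cell shape. SUN, an IQD gene of tomato, is known for elongating the fruit. In the leaf epidermis of Arabidopsis the relative IQD5 takes part in shaping pavement cells.

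The 9 arrays had medians between 3.7 and 3.81 over the 16722 transcript clusters paired with 1 gene. Over all 38408 clusters the medians moved with treatment, at 3.71 to 3.83 in control arrays and 3.87 to 4.15 in treated arrays, with no overlap. Compound 6 replicate 2 stood apart at 4.15, the others reaching at most 3.96. Control samples carry the label numbers 7 to 9, compound 6 samples 16 to 18 and compound 3 samples 19 to 21, so handling in that order and treatment cannot be told apart. Of 9 leaf mesophyll marker genes 4 were measured, and the 4 had control means of 13.5 for psbA, 13.2 for rbcL, 9.9 for RCA and 8.63 for LHCB4.2 (log2 value). No root, seed or epidermis marker on the lists had such a cluster. Freshly cut leaves were not part of these samples, so whether a higher value came from a gain during the 48 h or from a smaller loss cannot be told apart. In whole leaves, more cells that express a gene cannot be told apart from more RNA per cell.

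IQD19 was low in control leaves, slightly higher with compound 3 and highest with compound 6. The 3 control arrays read 1.91, 1.86 and 1.96 (log2 value). The 3 compound 3 arrays read 2.35, 2.3 and 2.16. The 3 compound 6 arrays read 3.67, 4.36 and 3.97. No array of a group overlapped an array of another group, in the order control, compound 3, compound 6. Compound 6 replicate 2, the array with the highest median over all clusters, was also the highest for IQD19. The lowest compound 6 array lay 1.32 above the highest compound 3 array, and the lowest compound 3 array lay 0.2 above the highest control array.

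**Figure D1:**
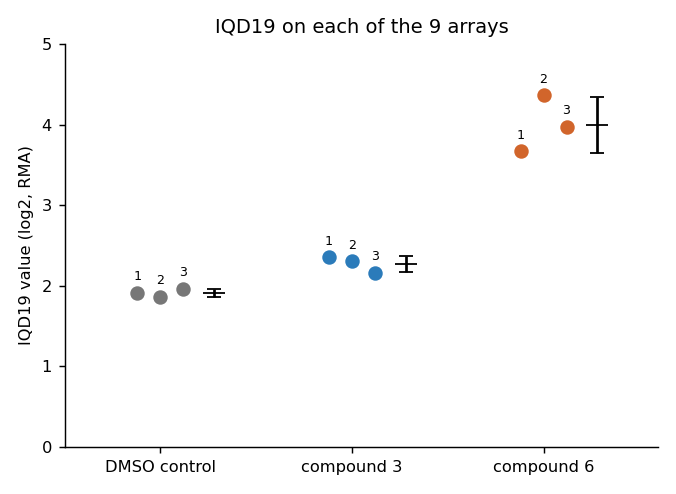
The log2 RMA value of IQD19 on the vertical axis is plotted for each array, with the replicate number above each point and the mean ± SD (n = 3) of each group as a black bar. The compound 6 arrays lie between 3.67 and 4.36, above all compound 3 arrays (2.16 to 2.35), which lie above all control arrays (1.86 to 1.96).

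Group means were 1.91 ± 0.052 in control leaves, 2.27 ± 0.098 with compound 3 and 4.0 ± 0.35 with compound 6 (log2 value, SD, n = 3). Compound 6 exceeded control by 2.09 (SE 0.21), 4.25-fold, and by 1.91 without compound 6 replicate 2. With the array medians over all 38408 clusters subtracted the difference was 1.84, and with quantile normalization applied again 1.92. The part of those medians in the result was otherwise not tested. At the same dose and time it exceeded compound 3 by 1.73 (SE 0.21), 3.31-fold, and by 1.55 without compound 6 replicate 2. This was the 1 pair of compounds compared. Compound 3 exceeded control by 0.36 (SE 0.21), 1.28-fold, which is 17.3% of the compound 6 difference on the log2 scale. Since the gene was chosen for these very differences, they are given as a description with no test. The pooled SD within groups was 0.21, so the step from compound 3 to compound 6 was larger than the spread of arrays. The step from control to compound 3 was less than 2 such SDs. That pooled SD came mostly from the compound 6 arrays (0.35), and the SDs of control and compound 3 were smaller (0.052 and 0.098). The working description of IQD19 as raised by compound 6 only leaves out this smaller step. Each compound 3 array was above each control array, but 12.9% of all clusters held that order, so it does not set IQD19 apart. With the array medians over all clusters subtracted the compound 3 difference was 0.21.

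The spread between replicates was uneven among the groups. The 3 control arrays lay within 0.10 of each other, the 3 compound 3 arrays within 0.19 and the 3 compound 6 arrays within 0.69. Within the compound 6 group replicate 2 was highest and replicate 1 lowest. In control leaves the value of IQD19 was near the low end of the array, with 15.7% of transcript clusters of 1 gene below it. That share was 24% with compound 3 and 52.8% with compound 6. These shares place the signal on the array and do not compare transcript abundance between genes. The deposited values carry no measure of signal over background, so a fold against the dim control value is approximate.

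Set against every transcript cluster paired with 1 gene, the compound 6 difference of IQD19 ranked 58 from the top of 16722, and its excess over compound 3 ranked 11. The compound 3 difference ranked 2974, with 17.8% of clusters higher. Compound 6 arrays lay above all control arrays for 11.9% of clusters, and compound 3 arrays did so for 12.9%. Compound 6 arrays lay above all compound 3 arrays for 8.13% of clusters. The full order of IQD19, each compound 3 array above each control array and each compound 6 array above each compound 3 array, was held by 160 clusters, 0.957%.

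**Figure D2:**
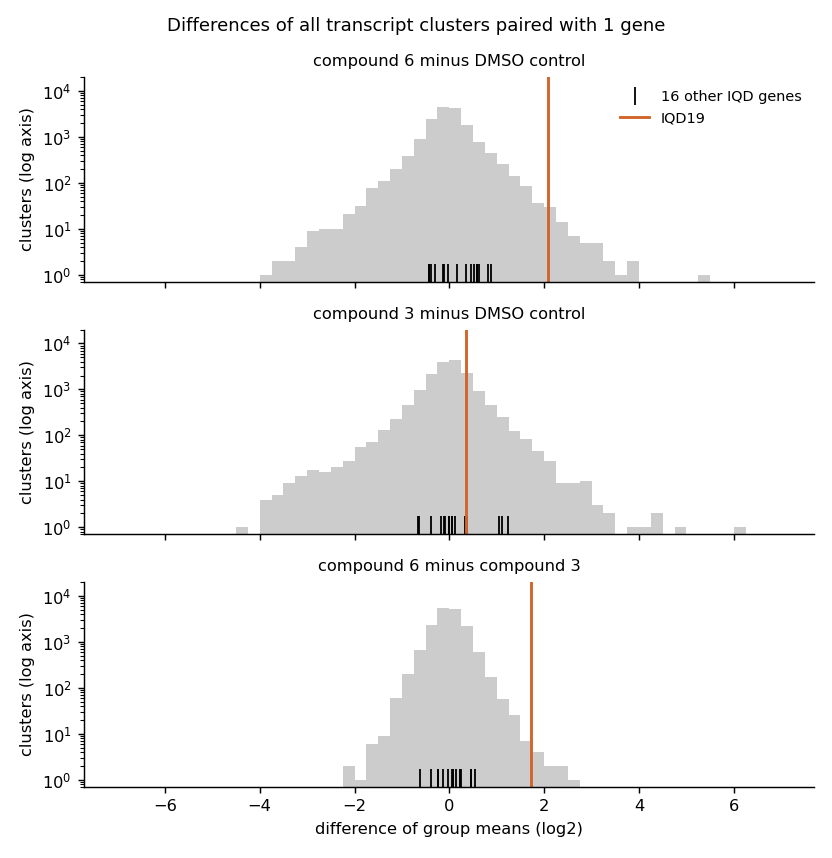
Histograms count the 16722 transcript clusters (log axis) by their difference of group means (log2) in each of the 3 comparisons; the orange line is IQD19 and black ticks are the 16 other IQD genes. IQD19 lies at 2.09, 0.36 and 1.73 from top to bottom, in the upper tail against control and between the compounds for compound 6, and within the bulk for compound 3 against control.

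A cluster was called when its limma p, adjusted by Benjamini-Hochberg over all 16722 clusters, was under 0.05. Called clusters made up 10.3% for compound 6 against control (1728, of which 54.3% higher), 11.7% for compound 3 against control (1957, of which 47.8% higher) and 0.299% for compound 6 against compound 3 (50, of which 72% higher). Subtracting from every array the median of its 38408 clusters gave 26%, 29.3% and 58.7% higher. Quantile normalization applied again gave 38.9% higher for compound 6 and 38.5% for compound 3 against control, and testing all transcript clusters gave 64.2% higher for compound 6 against control. By the call rule, 10 clusters were higher with compound 6 than in both other groups and not called for compound 3 against control, 0.0598% of those tested. IQD19 was 1 of them, which is how it came to be chosen. Leaving out single arrays moved this count from 10 to between 4 and 18, with 18 without DMSO control replicate 3, 6 each without DMSO control replicate 2, compound 3 replicate 1 or compound 6 replicate 3, 5 without compound 3 replicate 2, and 4 each without compound 3 replicate 3 or compound 6 replicate 2. With all transcript clusters tested it was 0.

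The other 9 clusters of that kind had compound 6 differences against control between 0.91 and 2.18. Among them 7 had a compound 3 mean below the control mean and 2 above it, with differences from -0.65 to 0.29. At 0.36, IQD19 had the highest compound 3 difference of the 10. SFP2 (AT5G27360), a sugar transporter of the sugar-porter family, was the other one with a symbol, at 1 with compound 6 and -0.22 with compound 3. The rest were AT1G60060, AT1G65295, AT1G68570, AT2G46420, AT3G22104, AT3G28270, AT3G20640 and AT5G21100. AT1G68570, which the RefSeq table also lists as a member of the nitrate and peptide transporter family, stood at 0.97 with compound 6 and -0.65 with compound 3.

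The genes whose pattern was most like that of IQD19 were found by Pearson's r of their 9 log2 values with the 9 values of IQD19. Only clusters with an SD over the 9 arrays of at least 0.5 times that of IQD19 were eligible, 2676 in all. The 10 highest had r between 0.92 and 0.96. The 9 arrays fall into 3 treatment groups, so r mostly follows the order of the group means, and these genes were picked for it. Their values are therefore a description. AT3G22104 came first (r = 0.96), with control arrays at 3.83, 3.7 and 3.63, compound 3 arrays at 4.16, 3.96 and 3.77, and compound 6 arrays at 4.94, 4.85 and 5.1. Its compound 6 arrays stood clear of the rest, while a compound 3 array lay within the range of the controls.

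AT4G21880 (r = 0.95) read 2.37, 2.53 and 2.6 in control leaves, 2.96, 2.74 and 3.02 with compound 3 and 3.59, 4.37 and 3.56 with compound 6. Like IQD19 it had no overlap between any groups, and its highest array was compound 6 replicate 2. AT5G21100 (r = 0.94) came closest to IQD19 in size, with 4.44, 4.12 and 3.74 in control leaves, 4.53, 4.42 and 4.23 with compound 3 and 6.58, 6.19 and 6.04 with compound 6. Its differences were 2.18 for compound 6 against control, 0.29 for compound 3 against control and 1.88 for compound 6 against compound 3. Here the highest compound 6 array was replicate 1, the lowest of IQD19.

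The other members of the 10 were AT2G46420, AT4G30400, AT5G57340, AT1G66430, AT2G37990, GTR1 (AT3G47960) and AT5G41900. Over the 10 the compound 6 difference against control ran from 0.93 to 2.18 with a median of 1.28. The compound 3 difference ran from -0.09 to 0.62 with a median of 0.29, and the excess of compound 6 over compound 3 ran from 0.69 to 1.88. All 10 had their compound 6 arrays above both other groups, and 2 of them, AT4G21880 and AT2G37990, also had their compound 3 arrays above control. GTR1, a plasma membrane transporter of glucosinolates, was the 1 of the 10 with a symbol.

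**Figure D3:**
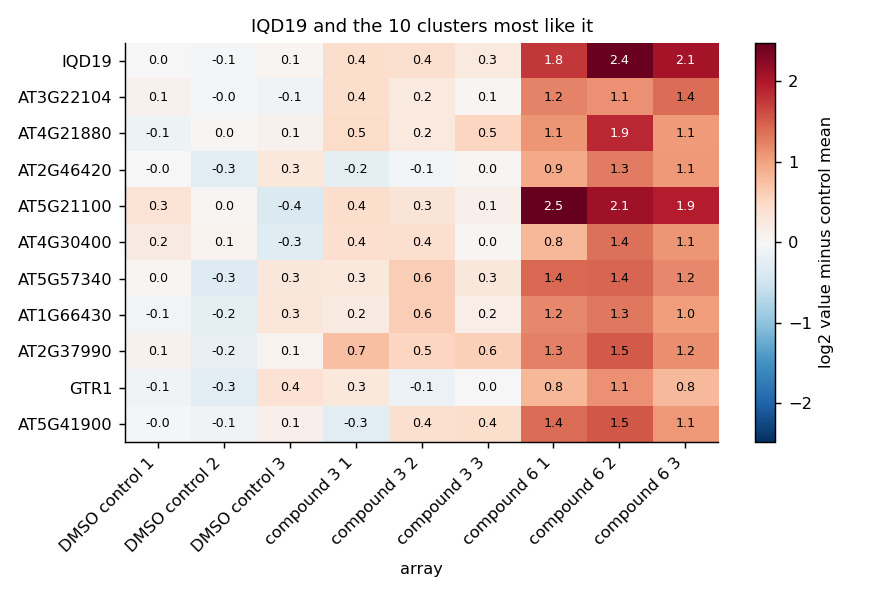
Each cell gives the log2 value of a gene (rows, IQD19 first, then the 10 most like it in order of r) on 1 of the 9 arrays (columns) minus the mean of that gene in control leaves; red is higher and blue lower. The 3 right-hand columns, compound 6, are red in every row, and AT5G21100 comes nearest to IQD19 in depth of colour.

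Among genes with a symbol the 5 most like IQD19 were GTR1 (r = 0.92), CHX16 (r = 0.92), CRR42 (r = 0.91), SFP2 (r = 0.91) and GH9C2 (r = 0.89). CHX16 (AT1G64170), a cation/proton exchanger, stood at 6.81 in control leaves, 7.56 with compound 3 and 8.52 with compound 6 (group means, log2 value). CRR42 (AT5G20935), needed for the chloroplast NADH dehydrogenase-like complex, stood at 4.66, 5.5 and 6.27 in the same order. GH9C2 (AT1G64390), an endoglucanase of the cell wall, stood at 4.24, 5.27 and 6.37. In these 3 genes all compound 3 arrays lay above all controls, with differences of means of 0.75 to 1.03. The 3 genes with a symbol that ran most opposite to IQD19 were ARL (r = -0.92), UGT89B1 (r = -0.91) and SIS (r = -0.86). ARL (AT2G44080), an ARGOS-like gene that promotes organ growth by cell expansion, stood at 9.11 in control leaves, 9 with compound 3 and 8.01 with compound 6. Its compound 6 arrays lay below all other arrays.

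Among the 16 other IQD genes, IQD22, IQD23 and IQD31 rose with both compounds against control and the other 13 did not pass, and none of the 16 passed between the compounds. The 3 that rose are 3 of 16 in each comparison, beside 5.62% of all clusters called higher for compound 6 and 5.6% for compound 3. No other IQD gene was called lower, beside 4.72% and 6.11% of all clusters. IQD18 was so called for compound 3 in 2 other fits, with the array medians over all 38408 clusters subtracted and without compound 3 replicate 2. An unadjusted p under 0.05 was reached by 6 of the 16 for compound 6, beside 21% of all clusters, and by 5 for compound 3, beside 23.1%. The median difference of the 16 was 0.25 for compound 6 against -0.02 over all clusters, and 0.03 for compound 3 against 0.0097. The 2 comparisons share the control arrays, so the calls on the same 3 genes are not independent of each other.

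IQD23 (AT5G62070) showed the greatest change of the 16 with compound 3. Its control arrays read 4.27, 4.4 and 4.29, its compound 3 arrays 5.39, 5.58 and 5.69 and its compound 6 arrays 4.96, 4.98 and 4.88. The groups did not overlap, and their order, with compound 3 on top, was not that of IQD19. It rose by 1.23 with compound 3 (95% interval 0.84 to 1.62; limma, adjusted p = 0.000455) and by 0.62 with compound 6 (95% interval 0.23 to 1.01; limma, adjusted p = 0.0416). The difference between the compounds was -0.61 (95% interval -1.0 to -0.22) and did not pass (limma, adjusted p = 0.201).

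IQD31 (AT1G74690) read 5.11, 4.79 and 4.81 in control leaves, 5.63, 6.51 and 5.93 with compound 3 and 5.7, 5.8 and 5.88 with compound 6. Both compounds lay above control, and they overlapped each other. It rose by 1.12 with compound 3 (95% interval 0.63 to 1.61; limma, adjusted p = 0.00506) and by 0.89 with compound 6 (95% interval 0.40 to 1.38; limma, adjusted p = 0.0225). Compound 6 minus compound 3 was -0.23 (95% interval -0.72 to 0.26; adjusted p = 0.837).

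IQD22 (AT4G23060), known in Arabidopsis as a target of the DELLA repressors of gibberellin signalling, read 4.92, 4.9 and 5.57 in control leaves, 6.15, 6.45 and 5.93 with compound 3 and 5.98, 6.04 and 5.8 with compound 6. Treated arrays of both compounds lay above all controls and overlapped each other. It rose by 1.05 with compound 3 (95% interval 0.56 to 1.53; limma, adjusted p = 0.00745) and by 0.81 with compound 6 (95% interval 0.32 to 1.30; limma, adjusted p = 0.0349). Compound 6 minus compound 3 was -0.23 (95% interval -0.72 to 0.25; adjusted p = 0.830).

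**Figure D4:**
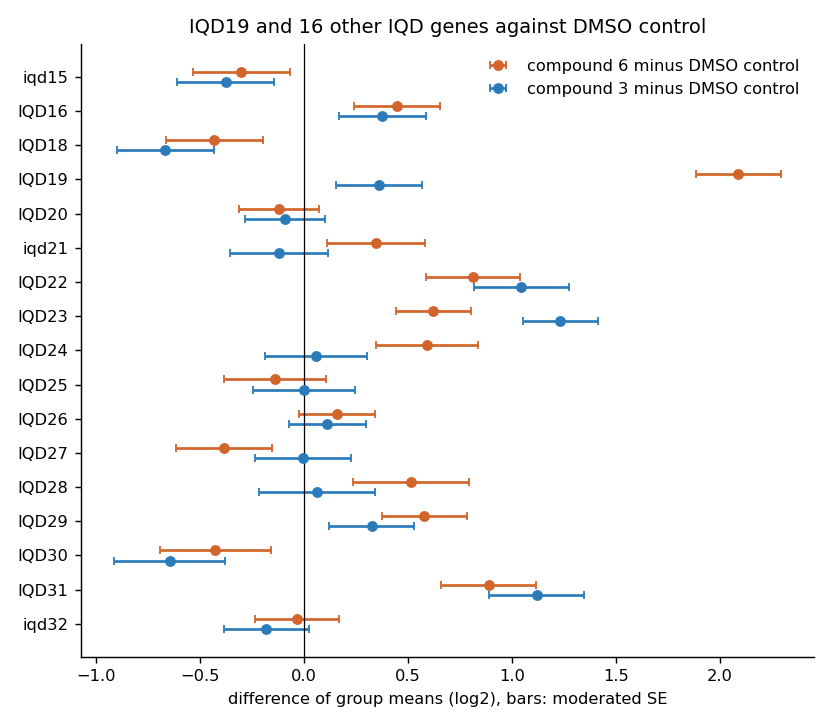
Points give the difference of group means (log2) from DMSO control for IQD19 and the 16 other IQD genes, with compound 6 in orange and compound 3 in blue, and bars are moderated SEs. IQD19 stands at 2.09 with compound 6, and the next IQD gene for that compound is IQD31 at 0.89; with compound 3 IQD23, IQD31 and IQD22 stand between 1.05 and 1.23 and IQD19 at 0.36.

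The 3 compound 3 calls held when any 1 of the 9 arrays was left out, and the compound 6 calls did not. IQD23 kept its compound 6 call in 1 of 9 such fits, without compound 3 replicate 3, and its adjusted p in the others lay between 0.0514 and 0.12. IQD22 lost it without DMSO control replicate 1 (0.71, adjusted p = 0.127) or 2 (0.70, adjusted p = 0.128), without any of compound 6 replicates 1 to 3 (0.79, 0.76 and 0.88, adjusted p = 0.0963, 0.11 and 0.0601) and without compound 3 replicate 1 (0.81, adjusted p = 0.0511). IQD31 lost it without DMSO control replicate 2 (0.83, adjusted p = 0.0755) or 3 (0.84, adjusted p = 0.064) and without compound 6 replicate 2 (0.89, adjusted p = 0.0636) or 3 (0.84, adjusted p = 0.0782). With the array medians over all 38408 clusters subtracted, or with quantile normalization applied again, none of the 3 was called for compound 6. In that comparison subtracting the medians gave 0.38 for IQD23, 0.57 for IQD22 and 0.64 for IQD31 (limma, adjusted p = 0.252, 0.128 and 0.109).

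In the comparison of compound 6 with compound 3 no other IQD gene passed with limma, beside 0.215% of all clusters called higher and 0.0837% lower, and 2 of the 16, IQD23 and IQD24, had an unadjusted p under 0.05, beside 10.1% of all clusters. IQD24 (AT5G07240) came nearest to IQD19 in the excess of compound 6 over compound 3, at 0.54 (95% interval 0.01 to 1.06; adjusted p = 0.481). Its arrays read 5.99, 5.44 and 6.06 in control leaves, 6.38, 5.73 and 5.55 with compound 3 and 6.42, 6.3 and 6.55 with compound 6. The compound 6 arrays lay above all controls, but compound 3 replicate 1 lay among them. For iqd21 (AT3G49260) the compound 6 arrays lay above all compound 3 arrays, with a difference of 0.47 (95% interval -0.04 to 0.97; adjusted p = 0.547). It was the 1 gene of the 16 with such an order, beside 8.13% of all clusters, and IQD23 was the 1 with the opposite order, beside 7.84%. The differences of the 16 ran from -0.61 to 0.54, and that of IQD19 was 1.73.

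The remaining IQD genes did not pass in any comparison of the deposited values with all 9 arrays. IQD29 (AT2G02790) had the highest r with IQD19 over the 9 arrays within the family (0.76), and differences of 0.58 with compound 6 (adjusted p = 0.0985) and 0.33 with compound 3 (adjusted p = 0.388). IQD18 (AT1G01110) changed by -0.43 and -0.67 (adjusted p = 0.331 and 0.0864) and IQD30 (AT1G18840) by -0.43 and -0.65 (adjusted p = 0.424 and 0.156). IQD16 (AT4G10640), whose overexpression in Arabidopsis alters shoot and cell shape, had 0.45 and 0.38 (adjusted p = 0.236 and 0.315). IQD28 (AT1G14380) had 0.51 and 0.06 (adjusted p = 0.335 and 0.935) and IQD27 (AT1G51960) -0.38 and -0.0042 (adjusted p = 0.403 and 0.996). The rest, iqd15, IQD20, IQD25, IQD26 and iqd32, had differences from control between -0.38 and 0.16. Over the family r with IQD19 ran from -0.59 for IQD27 to 0.76. Compound 6 arrays did not overlap control arrays in 7 of the 16, beside 24.6% of all clusters, and compound 3 arrays in 5, beside 26.4%.

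The 2 measured neighbours of IQD19 on chromosome 4 had other patterns. NET1B (AT4G14760), which encodes an actin-binding protein of the Networked family and is the next gene on one side, read 5.77, 4.64 and 5.36 in control leaves, 4.83, 4.83 and 5.58 with compound 3 and 5.67, 5.52 and 5.92 with compound 6. All groups overlapped, and compound 6 minus control was 0.44 (95% interval -0.18 to 1.06; limma, adjusted p = 0.448). AT4G14746, the nearest measured gene on the other side, rose by 0.70 with compound 6 and by 0.76 with compound 3 (limma, adjusted p = 0.0377 and 0.0226). Both calls ended with the array medians over all clusters subtracted, at 0.46 and 0.61 (adjusted p = 0.187 and 0.0902). The compound 6 call also ended with all clusters tested, quantile normalization and the replicate block (adjusted p = 0.0602, 0.059 and 0.0601). Its compound 6 call held in the 3 of 9 fits without a compound 3 array and ended without any 1 control or compound 6 array, with adjusted p up to 0.119 without DMSO control replicate 2. Its compound 3 call held in 5 of 9 and ended without DMSO control replicate 2 or 3 or compound 3 replicate 1 or 2, with adjusted p up to 0.119 without compound 3 replicate 1. Compound 6 minus compound 3 was -0.06 for it (95% interval -0.49 to 0.37; adjusted p = 0.963).

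Partners and functional relatives of the IQD proteins were covered in part. No calmodulin, kinesin light chain-related protein, other IQ-motif protein or calcium-regulated kinase on the lists was among the clusters named by 1 gene; the unnamed clusters were not searched for them. Of 6 calmodulin-like proteins none rose and CML41 (AT3G50770) fell with compound 6, and none of the 6 passed with compound 3. Over all clusters 4.72% were called lower with compound 6 and 11.7% either way with compound 3. For compound 3 limma gave 1 of the 6 an unadjusted p under 0.05, beside 23.1% of all clusters. The control arrays of CML41 read 7.35, 8.61 and 7.6, the compound 3 arrays 6.83, 7.49 and 7.63 and the compound 6 arrays 6.73, 6.42 and 6.28. All compound 6 arrays lay below all controls, as in 12.7% of all clusters, and below all compound 3 arrays, as in 7.84%. The difference from control was -1.38 (SE 0.31, limma, adjusted p = 0.0099) and kept its call in all 9 fits without 1 array. The median of the 6 was -0.03 with compound 6 and -0.25 with compound 3, beside -0.02 and 0.0097 over all clusters.

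Tubulins are the building blocks of the microtubules on which IQD proteins lie. Of 7 tubulin genes TUB6 and TUB5 rose with compound 6, TUB6 and TUB7 rose with compound 3 and none was called lower, beside 5.62% and 5.6% of all clusters called higher. The list's median was 0.77 with compound 6 and 0.21 with compound 3, beside -0.02 and 0.0097 over all clusters. TUB5 (AT1G20010), a beta-tubulin, read 3.42, 3.61 and 3.42 in control leaves, 3.8, 4.04 and 3.33 with compound 3 and 4.26, 4.49 and 4.95 with compound 6. Its compound 6 arrays lay above all controls, as in 11.9% of all clusters, and above all compound 3 arrays, as in 8.13%. It rose by 1.08 with compound 6 (SE 0.24, limma, adjusted p = 0.00823). Compound 6 minus compound 3 was 0.84 (95% interval 0.34 to 1.35) and did not pass (limma, adjusted p = 0.165). TUB6 (AT5G12250) rose with both compounds, by 1.11 with compound 6 and 1.02 with compound 3 (limma, adjusted p = 0.00293 and 0.00465). TUB9 (AT4G20890) went the other way, at -0.54 with compound 6 and -0.64 with compound 3, and did not pass (limma, adjusted p = 0.254 and 0.14). The compound 3 arrays of TUB9 lay below all controls, as in 13.4% of all clusters. The call of TUB7 (AT2G29550), 0.84 with compound 3 (limma, adjusted p = 0.0408), held in 1 of 9 fits without 1 array, without DMSO control replicate 2, with adjusted p up to 0.161 without DMSO control replicate 3 and 0.169 without compound 3 replicate 2. It also ended in 4 of 8 other settings, at 0.69 (adjusted p = 0.134) with the array medians over all clusters subtracted.

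TUB1 (AT1G75780), another beta-tubulin, was singled out after its values were seen. It was dim, with a control mean of 2.02 beside a lower quartile of 2.28 for the means of all clusters. Its control arrays read 2.19, 1.94 and 1.92, its compound 3 arrays 1.27, 1.87 and 1.88 and its compound 6 arrays 3.43, 2.47 and 2.56. The compound 6 arrays lay above all others and the compound 3 arrays below all controls. Over all clusters 11.9% had compound 6 above control, 8.13% compound 6 above compound 3 and 13.4% compound 3 below control, with no overlap. None of its differences passed, with 0.80 for compound 6 against control (limma, adjusted p = 0.0744), -0.34 for compound 3 (adjusted p = 0.509) and 1.15 for compound 6 against compound 3 (95% interval 0.58 to 1.72; adjusted p = 0.0902).

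None of 7 microtubule-associated proteins passed with limma in any comparison, where 10.3%, 11.7% and 0.299% of all clusters did, so a count of 0 among 7 is near the background. Their medians were 0.25 with compound 6 and 0.14 with compound 3, and an unadjusted p under 0.05 was reached by 1 in each of these comparisons and 2 between the compounds, beside 21%, 23.1% and 10.1% of all clusters. SP1L2 (AT1G69230), of the SPIRAL1-like proteins, had 0.65 with compound 6 (limma, adjusted p = 0.0722) and 0.21 with compound 3. It was dim, with a control mean of 2.07. The list of LONGIFOLIA, TRM and OVATE proteins, which shape plant organs and include recruiters of microtubule-organizing complexes, held 14 measured genes, all TRM (TON1 recruiting motif). With compound 6 TRM25 (AT5G62170) rose by 0.70 (limma, adjusted p = 0.0386), and the call held in 2 of 9 fits without 1 array, without compound 3 replicate 1 or 2, with adjusted p up to 0.158 without compound 6 replicate 1 and 0.123 without DMSO control replicate 2. It also ended in 5 of 8 other settings, at 0.45 (adjusted p = 0.21) with the array medians over all clusters subtracted. With compound 3 TRM19 (AT3G53540) rose by 1.17 and TRM25 by 1.03 (limma, adjusted p = 0.00863 and 0.00347). TRM26 (AT2G17550) fell by 0.96 (limma, adjusted p = 0.0152), a call that ended without DMSO control replicate 1, compound 3 replicate 1 or compound 3 replicate 2 (adjusted p = 0.0709, 0.0605 and 0.0724). The list's medians were 0.11 and 0.06, and none of the 14 passed between the compounds with limma, where 3 had an unadjusted p under 0.05, beside 10.1% of all clusters. Over all clusters 5.62% were called higher with compound 6, and 5.6% higher and 6.11% lower with compound 3.

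**Figure D5:**
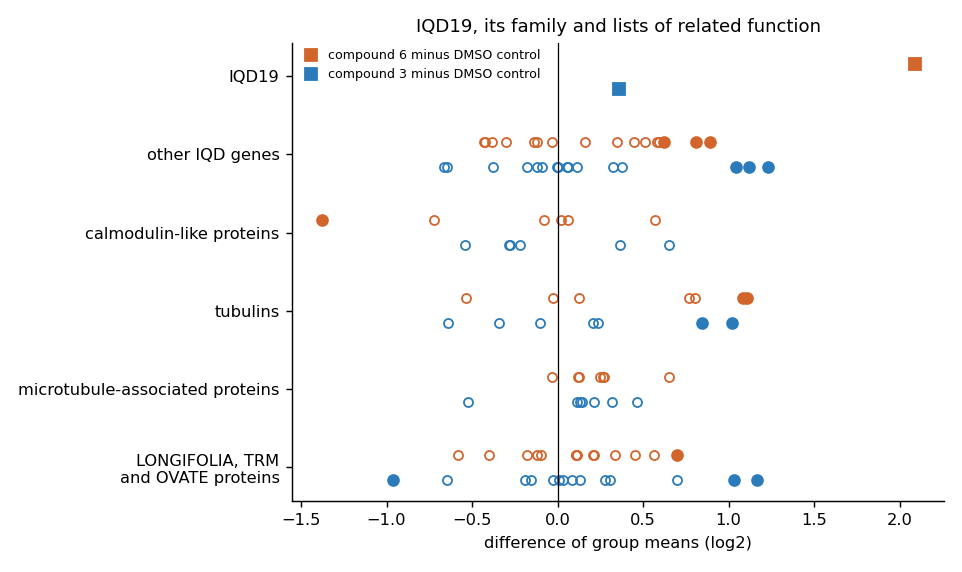
Each point is the difference of group means (log2) from DMSO control of 1 gene, with compound 6 in orange and compound 3 in blue. Filled circles passed the limma test over all clusters and open circles did not. The squares are IQD19, for which no test result is given because it was chosen for these differences. The tubulin points for compound 6 reach 1.11. No gene of the lists shown stands as high with compound 6 as IQD19, at 2.09, which was chosen for its compound 6 values. The cytokinin response list, not shown here, reached 3.08 with compound 6.

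The remaining lists cover cytokinin response, leaf cell types and senescence. Of 8 cytokinin response genes ARR15 and RR16 rose with both compounds and RR18 (AT5G58080) with compound 3, by 1.90 (limma, adjusted p = 0.0159), which ended without DMSO control replicate 3 or compound 3 replicate 3 (adjusted p = 0.0525 and 0.0725) or with all clusters tested (adjusted p = 0.0675). ARR15 rose by 3.08 with compound 6 and 4.96 with compound 3 (limma, adjusted p = 7.72e-06 and 1.1e-07). RR16 rose by 1.97 and 2.62 (limma, adjusted p = 0.000319 and 2.31e-05). Over all clusters 5.62% were called higher with compound 6 and 5.6% with compound 3. The list's medians were -0.10 and -0.02, beside -0.02 and 0.0097 over all clusters. Both fell among dim members of the list, RR19, RR21, RR22, RR23 and RR24, with control means of 1.62 to 2.57. These medians are therefore no measure of the cytokinin response. ARR15 (AT1G74890) ran against the order of IQD19; it encodes a response regulator of type A, a class that cytokinin induces. It read 7.26, 7.74 and 7.35 with compound 3 and 6.13, 5.35 and 5.25 with compound 6, with no overlap, and compound 6 minus compound 3 was -1.88 (95% interval -2.43 to -1.32; limma, adjusted p = 0.00654), a call that ended with all transcript clusters tested (adjusted p = 0.0846). RR16 (AT2G40670), also of type A, had -0.65 in that comparison (adjusted p = 0.411). Of the 4 leaf mesophyll markers RCA and LHCB4.2 rose with both compounds, beside the same 5.62% and 5.6% of all clusters. The others, psbA and rbcL, lay near the top of the array. Their differences were 0.0049 and 0.038 with compound 6 and 0.031 and 0.0014 with compound 3. The median of the 4 was 0.45 with compound 6 and 0.37 with compound 3, beside -0.02 and 0.0097 over all clusters. The calls of LHCB4.2 ended without DMSO control replicate 1 (adjusted p = 0.0867 with compound 6 and 0.179 with compound 3). The one for compound 6 also ended without DMSO control replicate 2 or compound 6 replicate 2 or 3, and the one for compound 3 held in 1 of 9 fits, without DMSO control replicate 3. With the array medians over all clusters subtracted LHCB4.2 was called for neither (adjusted p = 0.0795 and 0.128).

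Of 3 guard cell markers none passed with compound 6, where SPCH, a factor that starts the stomatal lineage, had 0.33 and FMA, which completes guard cells, 0.27 (limma, adjusted p = 0.386 and 0.628). SPCH was called for compound 3 at 0.63 (limma, adjusted p = 0.0499), a call kept in 1 of 9 fits, without DMSO control replicate 2, and at an adjusted p of up to 0.155 in the others, and in 1 of 8 other settings. SPCH was dim, with a control mean of 2.19 beside a lower quartile of 2.28 for the means of all clusters. Over all clusters 10.3% were called either way with compound 6 and 5.6% higher with compound 3. The 1 vascular marker measured, SWEET11, had 0.18 with compound 6 and -0.21 with compound 3, and the 1 glucosinolate synthesis gene, UGT74B1, had 0.14 and 0.43, with no call. Of 2 senescence markers WRKY6 fell by 0.77 with compound 6 (limma, adjusted p = 0.0142), not without DMSO control replicate 2 or compound 6 replicate 2 (adjusted p = 0.0521 and 0.0593), and SAG101 had -0.31 (adjusted p = 0.370). Over all clusters 4.72% were called lower with compound 6. With compound 3 the 2 markers went opposite ways and neither passed, WRKY6 at -0.27 and SAG101 at 0.43 (limma, adjusted p = 0.444 and 0.151). The part of cell type composition in the IQD19 result was not tested.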

How the data were processed

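The authors deposited 1 log2 expression value for each transcript cluster on each array. The submitters' processing notes name RMA, oligo and limma, without versions. For a genome build, the sources used here give none. In RMA, background is removed, array distributions are made equal and probes are summarised. No log base is written in the table. Its values, from 0.132 to 13.9, are of the size RMA gives in log2, and every fold change rests on that reading. Arrays have no read depth, and their number limits the precision.

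Of 38408 transcript clusters 16722 were paired with 1 gene by the platform table, 16574 of them found in the RefSeq table (TAIR10.1), which gave symbols and gene order; 759 had several genes and 20927 stay unnamed here. Group means were contrasted with limma 3.58.1 (lmFit, eBayes; R 4.3.3) in 1 model of 9 arrays (6 residual and 7.89 prior degrees of freedom), tested on simulated data, two-sided, with Benjamini-Hochberg adjustment over the 16722. With 3 arrays against 3 an exact permutation test cannot go below 0.1 and was not used.

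IQD19, the 17 lists of related genes and the tests were chosen with earlier results of these data known. Genes named were IQD19, all IQD genes, the genes most and least like IQD19 by Pearson's r, its neighbours, and from each list up to 3 members called for compound 6 or, with none, up to 2 as values; members called in other comparisons were added. For genes with several clusters the cluster of highest mean was used. A gene from the TRM pattern that the RefSeq table gives as a tRNA modification gene was dropped. Of the lists 10 had a measured member.

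The labels number replicates 1 to 3 in each group. Deviations from group means of same-numbered arrays correlated between -0.37 and 0.26, over 0.1 in 2 of 9 pairs, so the numbers were not taken as pairs. Different-numbered arrays of different groups gave -0.32 to 0.51, over 0.1 in 8 of 18 pairs. The highest was compound 6 replicate 2 with DMSO control replicate 3. What such arrays share was not tested. Figures were drawn with matplotlib 3.10.9 (Python 3.11.15).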

Additional observations from a re-analysis of the deposited data

How the results depend on the processing

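The 17 alternatives were 8 settings and 9 single arrays left out. Of these the centrings and the quantile step could change the differences of IQD19 other than by leaving out an array. Leaving out an array could not change its order of groups, because the groups did not overlap. The choice of IQD19 fixed compound 6 as the highest group, and not the order of the other groups. Its compound 6 difference was 1.91 to 2.25 without single arrays and lowest, 1.84, with each array centred on the median of its 38408 clusters. For compound 6 against control, that centring moved the median difference of the clusters paired with 1 gene from -0.02 to -0.27. Quantile normalization applied again moved it to -0.14. Its compound 3 difference was 0.21 to 0.42 and the difference between the compounds 1.55 to 1.89. Other IQD genes called for compound 6 against control fell from 3 to 1 with all transcript clusters tested, with only the 2 groups in the fit and with the replicate block, to 0 with that centring or quantile normalization, and were 0 to 3 without single arrays. Other IQD genes called for compound 3 against control were 3 or 4 in each alternative. With all transcript clusters tested 3144 clusters were called for compound 6, 3360 for compound 3, 3 between the compounds and 0 for compound 6 alone. The replicate block gave 29 between the compounds and 6 for compound 6 alone, beside 50 and 10. Without single arrays these counts were 20 to 112 and 4 to 18; 112 came without DMSO control replicate 3, and 20, 22, 24, 25, 26 and 29 without compound 3 replicate 3, compound 6 replicate 2, compound 3 replicate 2, compound 6 replicate 3, compound 6 replicate 1 and compound 3 replicate 1. The causes were not tested. A dim control signal with no background measure limits each fold of IQD19.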
